A study of Mus musculus with 12 samples.

Results

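Astrocytes labelled GADD45G were compared with astrocytes labelled GFP over all 25923 genes listed for this experiment, of which 17240 were protein coding. The comparison takes in 6 of the 12 RNA-seq libraries of the series, 3 per group, and its members were chosen by library label alone. All cells were primary cortical astrocytes of wild-type C57BL/6J mice at postnatal day 3. Every group was grown with 10% serum to confluency at 8 to 10 days, purified and replated before its virus was added, and then held serum-free for 1 week. The GADD45G libraries came from cells given a virus that expresses GADD45G, and the GFP libraries from cells given a control virus that expresses green fluorescent protein. The other 6 libraries are labelled shGADD45G (a short hairpin RNA against endogenous Gadd45g) and shLuc (the controls of that experiment). They are used here only as levels set beside these 2 groups. No label names the virus type, its promoter or the species of the GADD45G sequence. No label ties a replicate to a culture of its own either, and p-values therefore reflect only how these libraries vary, which may be technical variation.

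GADD45G belongs to a small family of stress-induced proteins that lack an enzymatic activity of their own and act by binding partners, among them a kinase upstream of p38 and JNK. Astrocytes clear glutamate and potassium from the space around neurons, store glycogen, release lactate and lipids, and join each other through gap junctions. Ependymal cells, which line the brain ventricles and beat motile cilia, arise from the same radial glia as astrocytes, and glial cultures of newborn cortex can hold both, as well as neural progenitors. The gene groups described below are those of metabolism, adhesion, transcription factors, receptors and cilia.

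The targeted gene was checked first. Gadd45g (ENSMUSG00000021453, chromosome 13 from 51846678 to 51848468, plus strand, mm10) had 150, 144 and 139 CPM (a library's read counts divided by its TMM-adjusted size, so that libraries can be compared) in the GADD45G libraries, against 121, 133 and 134 CPM in the GFP libraries. The groups did not overlap, as for 66.5% of all genes tested. edgeR's quasi-likelihood test gave a log2 fold change of 0.15 (SE 0.05) at an adjusted p of 0.0298. SE, here and below, is the absolute log2 fold change over the square root of the test's F statistic, an approximation. The call of Gadd45g was lost without GADD45G library 1 (adjusted p = 0.137) and without GFP library 1, 2 or 3 (0.0658, 0.0753 and 0.0671). An exact two-sided permutation test gave p = 0.1, and with groups of 3 no smaller value is possible. With all 12 libraries scaled together, Gadd45g averaged 142 CPM in GADD45G libraries, 129 CPM in GFP libraries, 113 CPM in shGADD45G libraries and 141 CPM in shLuc libraries. The shGADD45G libraries had 67.6, 148 and 122 CPM, so only library 1 lay well below the shLuc libraries (141, 152 and 130 CPM). The libraries labelled GADD45G thus stood at about the level of the shLuc controls. Directions below are therefore those between labelled libraries.

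Total counts ran between 17810863 and 18777231 in the GADD45G libraries and between 19480657 and 20756461 in the GFP libraries. GADD45G library 3 stood apart. Markers of blood, lung and other tissues summed to 2046 CPM there, against 1.14 to 2.4 CPM in the other GADD45G libraries and 3.89 to 6.01 CPM in the GFP libraries. Microglia and macrophage markers summed to 211 CPM in that library, against 74.4 to 76.8 CPM in the other GADD45G libraries and 161 to 166 CPM in the GFP libraries. Every gene group was therefore also fitted without it. Astrocyte markers summed to 5107 to 5800 CPM in the GADD45G libraries and 4133 to 4175 CPM in the GFP libraries, and 9 of 11 tested were higher, with Aldoc lower and Aldh1l1 not passing. Pan-neuronal markers summed to 75.7 to 83.8 CPM in the GADD45G libraries, against 262 to 269 CPM in the GFP libraries and 97.8 to 101 CPM in the shLuc libraries. Oligodendrocyte lineage markers summed to 244 to 257 CPM in the GADD45G libraries, against 676 to 687 CPM in the GFP libraries, although 4 of 8 tested were higher and 2 lower. In bulk RNA, fewer cells of a type and less RNA per cell cannot be told apart.

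Changes were broad and small for most genes. Of 15418 genes tested, 9300 (60.3%) passed an adjusted p of 0.05, with 4716 (30.6%) higher and 4584 (29.7%) lower in the GADD45G libraries. A gene is called here when it passed in the same direction both with all 6 libraries and without GADD45G library 3. That held for 4580 higher genes (29.7%) and 4420 lower genes (28.7%), together 58.4% of those tested, whose median sizes were 0.55 and 0.64 on the log2 scale. Called genes that also differed at least 2-fold numbered 1339 higher (8.68%) and 1470 lower (9.53%). Another 300 genes passed only with all libraries, with a median size of 0.23, and no gene passed in opposite directions in the 2 fits. Counts of higher and lower members of lists and areas are of genes that passed with all 6 libraries. A member so counted need not be called, whereas counts at 2-fold are of called genes. Over all genes tested the median log2 fold change was 0.014. The plot of fold changes with and without that library shows where both fits part.

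**Figure D1:**
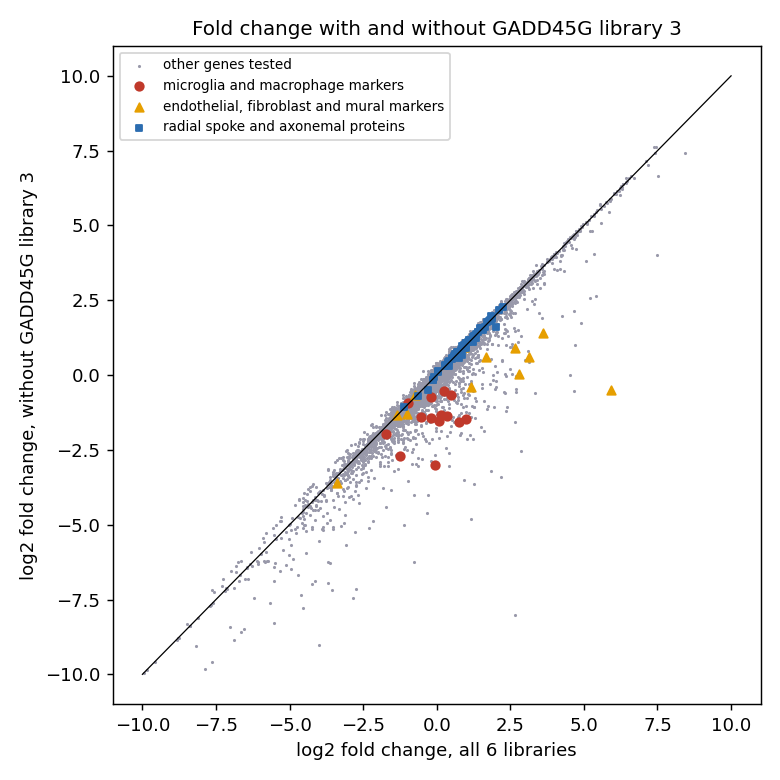
Log2 fold change (GADD45G over GFP) of each gene with all 6 libraries (horizontal axis) and without GADD45G library 3 (vertical axis), where points on the line did not move. Radial spoke and axonemal genes (squares) lie along the line, whereas microglia markers (circles) and endothelial, fibroblast and mural markers (triangles) lie mostly below it.

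Outside interferon and reactive genes, the 12 largest rises and 12 largest falls were taken first. Col6a5, a collagen VI chain, had 31.2, 35 and 32.6 CPM in GADD45G libraries, against 0.563, 0.335 and 0.244 CPM in GFP libraries, a log2 fold change of 6.42 (SE 0.17, adjusted p = 1.4e-10). Nupr1, a stress-induced chromatin protein, had 108, 106 and 120 CPM against 2.25, 1.58 and 1.86 CPM (5.88, SE 0.10). The shLuc mean was 2.91 CPM for Col6a5 and 6.10 CPM for Nupr1 when all 12 libraries were scaled together. Both genes were thus high in the GADD45G libraries relative to both controls. In the shGADD45G libraries Col6a5 averaged 0.925 CPM, but Nupr1 averaged 26.6 CPM, also above its shLuc mean. Angptl7, a secreted angiopoietin-like protein, rose by 6.23 (SE 0.29). Grem1, a secreted BMP antagonist, rose by 5.26 (4.75 to 5.90 with each library left out in turn) with 2.4, 2.56 and 5.21 CPM in GADD45G libraries, against 0, 0.0956 and 0.147 CPM in GFP libraries. The largest falls were in genes that were all but silent in the GADD45G libraries. Sprn, which encodes the prion-related protein Shadoo, had 0.168, 0.109 and 0.0554 CPM in GADD45G libraries, against 21.1, 23.2 and 22.1 CPM in GFP libraries (log2 fold change -7.57, SE 0.21). Cyp2j13, a cytochrome P450 gene, had a single count over the GADD45G libraries, against 355 over the GFP libraries. The ratio of GFP to GADD45G was 316, and its exact 95% counting interval ran over 56.4 to 12532. Asxl3, a Polycomb-associated gene, had 3 counts against 768, for which that ratio was 228 (77.8 to 1109). These intervals cover counting error only. For Sprn the shLuc mean was 0.175 CPM, close to the GADD45G libraries and far below the GFP libraries.

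That last pattern was common. For genes lower by at least 2-fold and listed in both experiments, the shLuc mean lay nearer the GADD45G mean than the GFP mean, on the log2(CPM + 0.5) scale, for 1120 of 1455 (77.0%). For genes higher by at least 2-fold it did so for 742 of 1339 (55.4%). The tables are separate experiments that share no library, so these levels carry no test, and a culture or batch difference cannot be told apart from the virus. The plot of levels in all 4 groups shows mostly this pattern, with the shLuc mean nearer the GADD45G mean for every rise plotted. Rises relative to both controls, as for Col6a5 and Nupr1, are not among the genes plotted. The shLuc level is given beside only some of the genes below, and a gene without it may follow either pattern.

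**Figure D2:**
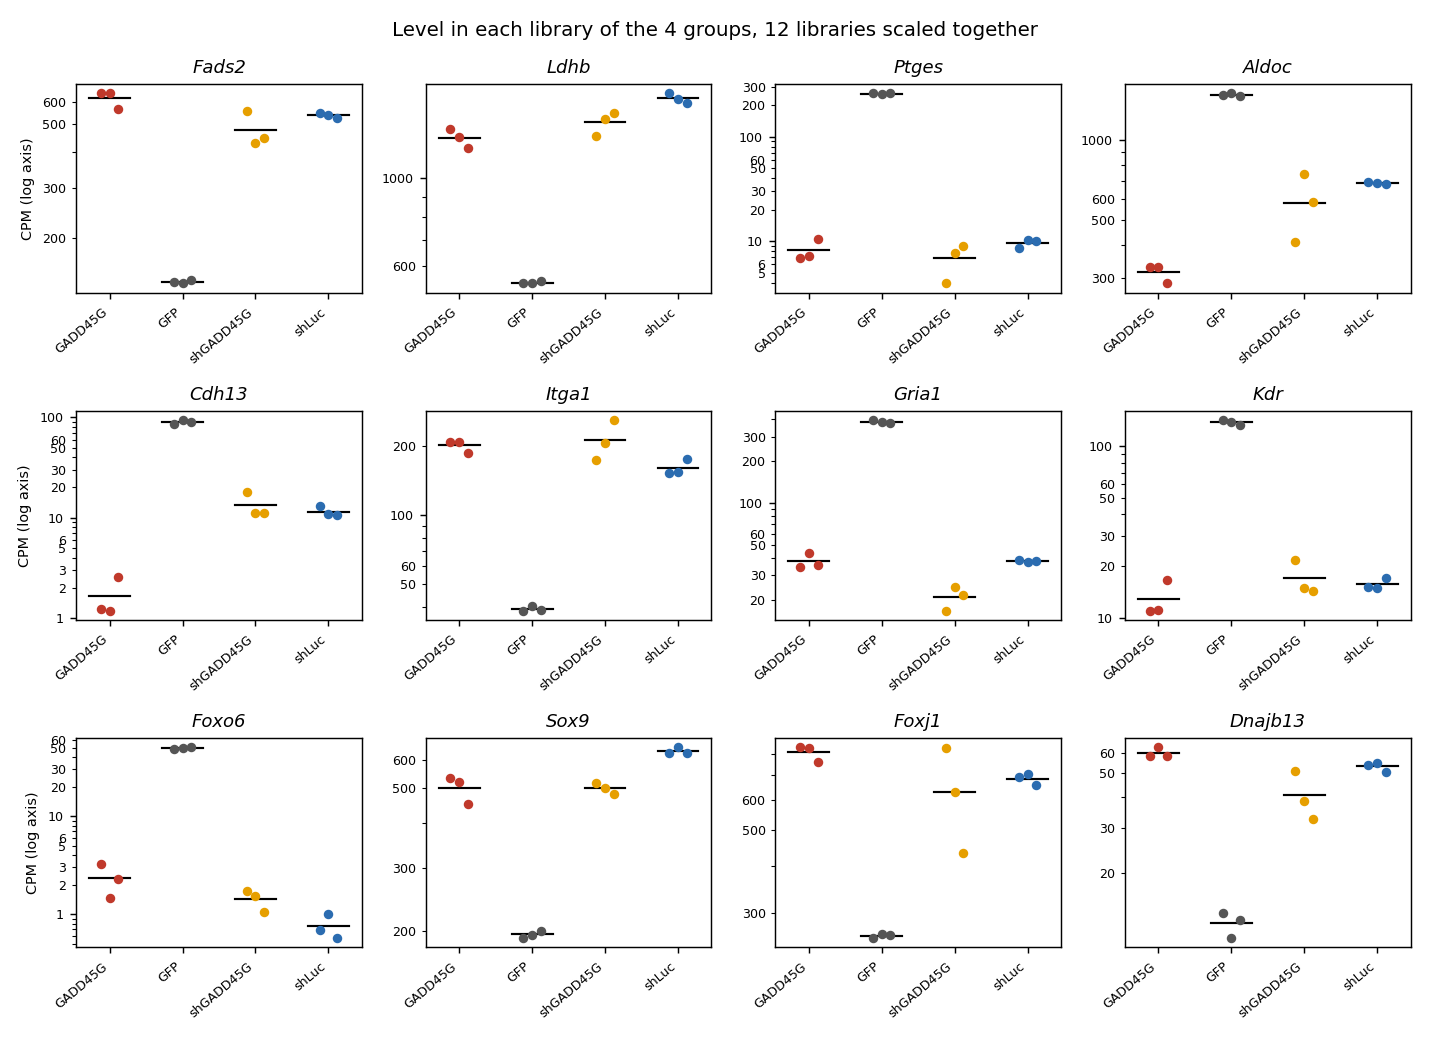
Level (CPM on a log axis, scaled over all 12 libraries) of 12 genes in each library, with the group mean as a bar, for GADD45G, GFP, shGADD45G and shLuc libraries. The GADD45G and GFP libraries are separated for every gene shown, and the shGADD45G and shLuc libraries lie nearer the GADD45G libraries for most of them.

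Metabolic genes moved little as an area, and the changes sat in a few branches. Of 314 tested members in 14 lists, 94 were higher and 119 lower, together 67.8% beside 60.3% of all genes tested, with a median log2 fold change of -0.06. Called changes of at least 2-fold were made by 29 higher and 16 lower members, 14.3% of the area beside 18.2% of all genes. Amino acid, retinoid, fatty acid desaturation, prostaglandin and tryptophan genes were among the larger changes. The plot of list members gives the spread of each list.

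**Figure D3:**
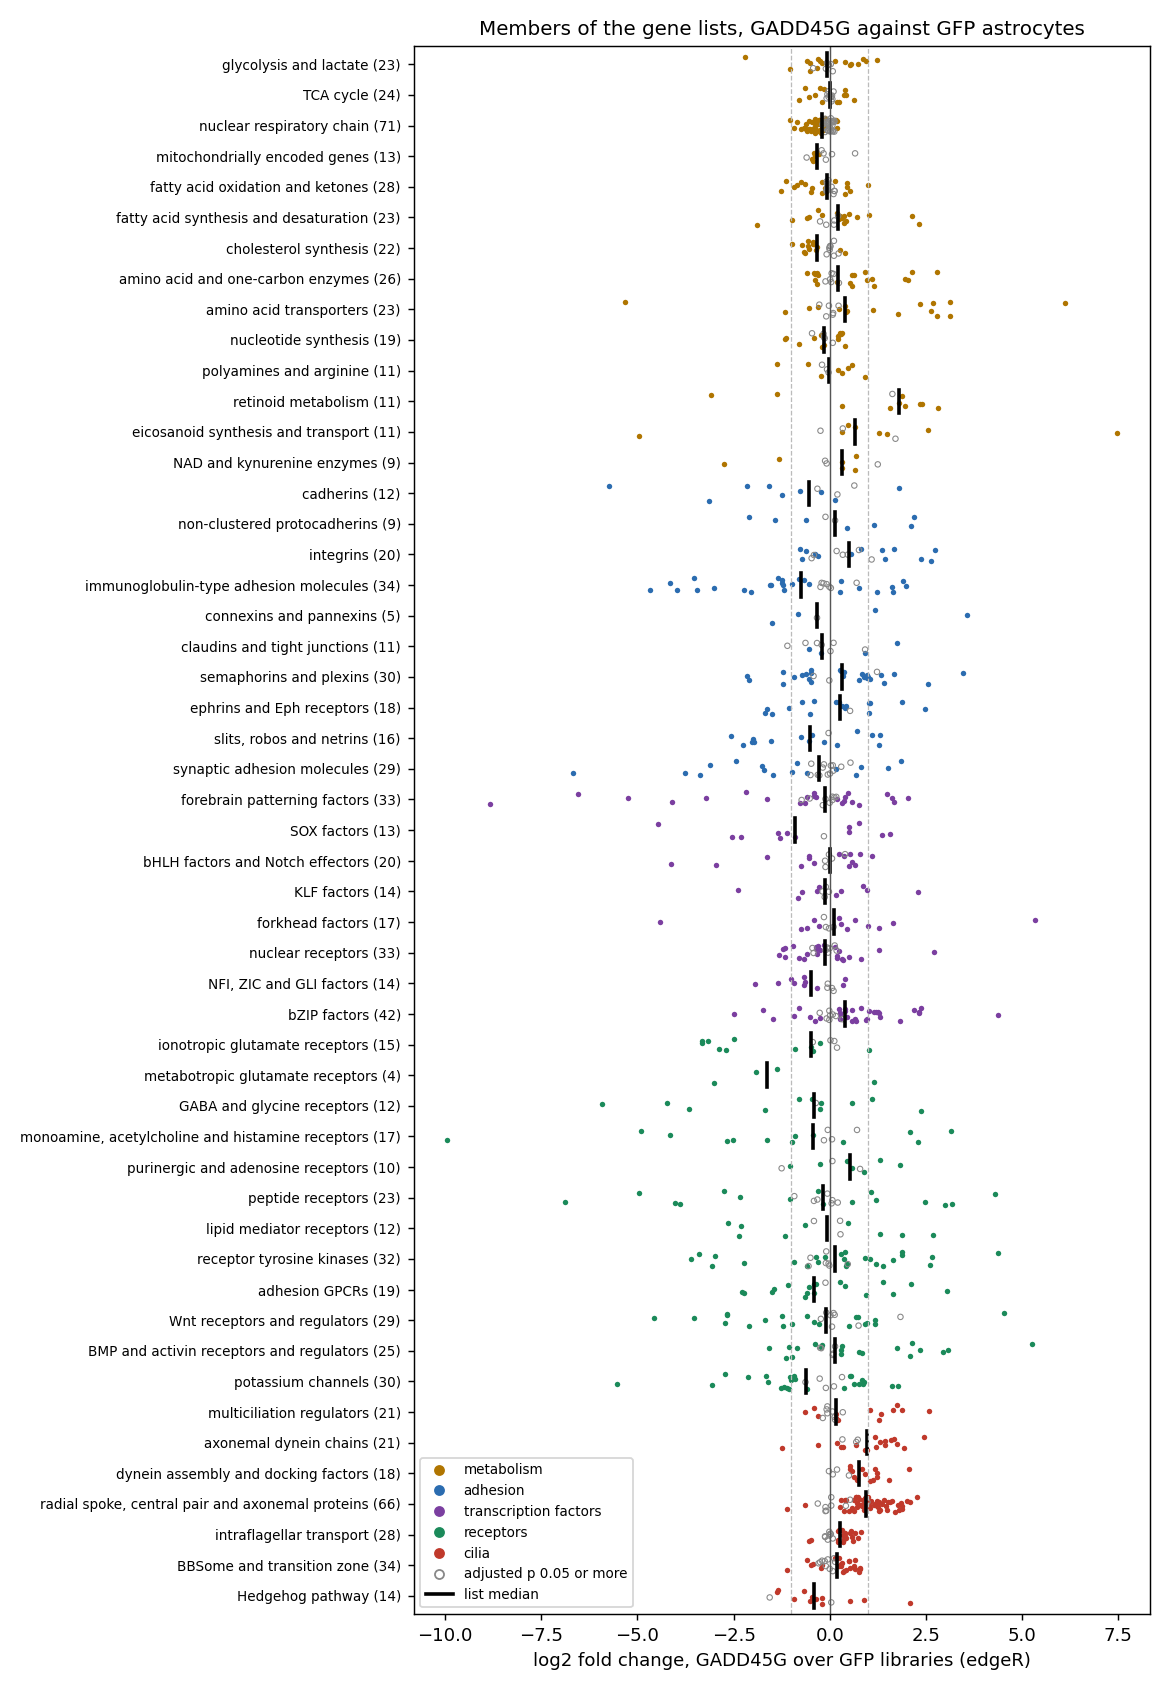
Log2 fold change (GADD45G over GFP) of each tested member of the lists of the 5 areas, 1 row per list with the number tested in brackets. Filled points passed an adjusted p of 0.05, open points did not, black bars are list medians, and dashed lines mark 2-fold. Motile axoneme lists sit right of 0 (medians 0.77 to 0.98), retinoid metabolism has the highest median (1.79), and neurotransmitter receptors and adhesion molecules spread far to the left.

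In energy metabolism, the aldolase isoforms moved apart. Aldoc, the brain aldolase and a classical astrocyte marker, had 333, 337 and 289 CPM in GADD45G libraries, against 1474, 1499 and 1468 CPM in GFP libraries (log2 fold change -2.21, SE 0.06, adjusted p = 1.2e-10). Aldoa, the ubiquitous aldolase, was instead higher by 0.53 (SE 0.04). The shLuc means were 687 CPM for Aldoc and 1367 CPM for Aldoa, below the GFP libraries for Aldoc and above them for Aldoa. Ldhb, the lactate dehydrogenase subunit that favours pyruvate, had 1350, 1293 and 1205 CPM in GADD45G libraries, against 546, 544 and 552 CPM in GFP libraries (1.23, SE 0.05). Slc16a1, the monocarboxylate transporter MCT1 that carries lactate, rose by 0.94 (SE 0.05). Hk2, an inducible hexokinase, rose by 0.87 (SE 0.08), with 30.3, 32.2 and 33.3 CPM against 16.2, 17.8 and 18.3 CPM and a shLuc mean of 14.3 CPM. Pfkp, the platelet-type phosphofructokinase, fell by 1.04 (SE 0.04) and Pfkl by 0.58 (SE 0.05). Gapdh did not pass (1151, 1124 and 1083 CPM against 1115, 1160 and 1141 CPM, adjusted p = 0.613). Over the 23 glycolysis and lactate genes 8 were higher and 9 lower.

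At the entry to mitochondria, Pdha1, a pyruvate dehydrogenase subunit, fell by 0.80 (SE 0.05), while Pcx, the pyruvate carboxylase that astrocytes use to replenish the TCA cycle, rose by 0.63 (SE 0.05). Of 24 TCA cycle genes 6 were higher and 7 lower, together 54.2%, which is below the 60.3% of all genes. Respiratory chain genes shifted down together by small amounts. Of 71 nuclear-encoded subunits 41 were lower and 3 higher (62%), with a median of -0.19, and the single member past 2-fold was Atp5k, a subunit of the ATP synthase (27.7, 16.8 and 20.7 CPM in GADD45G libraries, against 46.2, 43 and 43.4 CPM in GFP libraries, -1.03, SE 0.14). The 3 that rose were Ndufv1 (0.19), Uqcrc1 (0.18) and Uqcrq (0.17), of which Uqcrc1 and Uqcrq were lost with no filter on low counts, and all 3 were lost without at least 2 of the 6 libraries in turn. Of the 13 genes encoded in mitochondrial DNA 7 were lower, among them mt-Nd1 (-0.46), mt-Nd4 (-0.43), mt-Cytb (-0.42) and mt-Nd5 (-0.28), and none was higher. mt-Co1 had 6708, 6846 and 7063 CPM in GADD45G libraries, against 6634, 6600 and 6584 CPM in GFP libraries, and did not pass (0.06, adjusted p = 0.146). These genes took 1.66 to 1.84% of all counts in the GADD45G libraries and 2.02 to 2.03% in the GFP libraries.

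Lipid metabolism was marked by the fatty acid desaturases, which make polyunsaturated fatty acids and lie side by side on chromosome 19 (mm10). Fads2, the delta-6 desaturase (10064164 to 10101503, minus strand), had 649, 653 and 570 CPM in GADD45G libraries, against 141, 139 and 144 CPM in GFP libraries. Its log2 fold change was 2.14 (SE 0.06, adjusted p = 1.5e-10). Fads3 (10041548 to 10059671, plus strand) had 275, 269 and 253 CPM against 53.9, 53.1 and 51.5 CPM, a log2 fold change of 2.33 (SE 0.05). Fads1, the delta-5 desaturase (10182888 to 10196870, plus strand), rose by 1.01 (SE 0.05). All 3 were also above the GFP level in shLuc libraries, with means of 538 CPM for Fads2, 161 CPM for Fads3 and 810 CPM for Fads1. Elongase genes were split, with Elovl1 (0.18) and Elovl7 (0.37) higher, Elovl5 (-0.21) lower and Elovl4 not passing (-0.25). The call of Elovl1 was lost with DESeq2, with no filter on low counts, without GADD45G library 1 (0.12) and without GFP library 3 (0.11). Elovl2, which extends polyunsaturated fatty acids, had 1.51, 2.45 and 1.72 CPM in GADD45G libraries, against 7.42, 7.12 and 6.74 CPM in GFP libraries (-1.90, SE 0.21), and Elovl6 was lower by 0.98 (SE 0.07). Of 23 genes of fatty acid synthesis and desaturation 12 were higher and 6 lower. Of 22 genes of cholesterol synthesis 12 were lower and 2, Sqle (0.40) and Fdft1 (0.26), were higher, and no called change reached 2-fold. In fatty acid oxidation and ketone metabolism 6 of 28 were higher, led by the ketone body enzyme gene Bdh1 (1.00, SE 0.10), and 11 were lower, among them the thiolase gene Acaa2 (-1.14, SE 0.12).

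Of 26 amino acid and one-carbon enzymes 13 were higher and 7 lower, with 6 higher by at least 2-fold, and of 23 amino acid transporters 13 were higher and 4 lower, with 9 higher and 2 lower by at least 2-fold. Mthfd2, a mitochondrial folate enzyme, had 45.5, 46.8 and 39.6 CPM in GADD45G libraries, against 6.45, 6.65 and 6.16 CPM in GFP libraries (2.78, SE 0.09, adjusted p = 6.7e-10). Pycr1, which makes proline, had 11.1, 11.9 and 12.5 CPM against 2.81, 2.73 and 3.13 CPM (2.03, SE 0.14). Bcat1, the cytosolic branched-chain aminotransferase, rose by 2.14 (SE 0.28). All 3 stood nearer the GFP libraries than the GADD45G libraries in shLuc cells, with means of 16.8 CPM for Mthfd2, 5.75 CPM for Pycr1 and 0.925 CPM for Bcat1. In the shGADD45G libraries, however, Mthfd2 averaged 46.6 CPM, Pycr1 10.6 CPM and Bcat1 2.03 CPM. Among the transporters, Slc38a3, a glutamine carrier, had 791, 763 and 675 CPM in GADD45G libraries, against 86.9, 86.6 and 82.9 CPM in GFP libraries (3.12, SE 0.06) and a mean of 622 CPM in shLuc libraries. Slc1a5, a neutral amino acid exchanger, rose by 3.14 (SE 0.20), and Slc3a2, the heavy chain shared by several exchangers, by 1.78 (SE 0.05). Its light chain Slc7a11, the cystine-glutamate exchanger, had 67.7, 80.5 and 69.9 CPM in GADD45G libraries, against 1.53, 1.05 and 0.537 CPM in GFP libraries (6.13, SE 0.17). Its means were 19.3 CPM in shGADD45G libraries and 3.33 CPM in shLuc libraries. The glutamate transporters Slc1a2 and Slc1a3 rose by 1.12 and 0.24. The GABA transporter gene Slc6a11 fell, with 0.112, 0.0544 and 0.444 CPM against 7.93, 8.65 and 8.6 CPM (-5.33, or -6.56 without GADD45G library 3). Glul, the glutamine synthetase of astrocytes, fell by 0.39 (SE 0.04).

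Transcription of many amino acid genes is known to be raised by ATF4, which binds with a C/EBP partner to a composite element. The promoters were searched for that element, TGATGNAA, on both strands of 300-base windows (250 bases before to 50 after each annotated start, RefSeq, GRCm38.p6). Atf4 itself rose by 1.15 (SE 0.05). It was found in 6 of 38 amino acid genes with a window (15.8%), in 305 of 11281 tested genes with a window (2.7%) and in 1219 of all 27025 genes with a window (4.51%). It was in 3 of 21 amino acid genes called higher (14.3%) and in 3 of the 17 others (17.6%). Of the 6, Asns, Pycr1 and Slc7a11 were higher, and Got1 (0.10), Slc1a4 (-0.09) and Slc7a7 (0.23) did not pass. The windows of Slc7a11 and Pycr1 are shown in full because these were among the largest rises, with the element in capitals.
Slc7a11, chr3:50443564-50443863, minus strand: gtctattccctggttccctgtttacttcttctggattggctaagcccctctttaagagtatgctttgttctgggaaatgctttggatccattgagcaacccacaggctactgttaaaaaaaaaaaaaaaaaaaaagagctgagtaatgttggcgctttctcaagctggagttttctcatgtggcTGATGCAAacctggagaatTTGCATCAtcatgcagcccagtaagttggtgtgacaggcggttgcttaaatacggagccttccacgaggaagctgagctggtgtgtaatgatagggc
Pycr1, chr11:120643699-120643998, minus strand: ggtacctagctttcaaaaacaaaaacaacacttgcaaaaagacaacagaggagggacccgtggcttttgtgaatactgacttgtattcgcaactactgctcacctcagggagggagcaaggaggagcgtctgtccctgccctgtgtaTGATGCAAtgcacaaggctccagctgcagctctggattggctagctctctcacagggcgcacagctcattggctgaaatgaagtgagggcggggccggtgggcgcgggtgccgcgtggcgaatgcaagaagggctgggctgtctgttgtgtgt
Slc7a11 holds 2 copies, 1 on each strand, that start 66 and 47 bases before the annotated start, and Pycr1 holds 1 that starts 103 bases before it. A match of these letters is a description of the window and not a bound site.

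Retinoid metabolism had the highest median of the lists in these areas. Retinoic acid is made from retinol by dehydrogenases, is degraded by CYP26 enzymes and acts on nuclear receptors. Of 11 tested genes 8 rose and 2 fell, and the median was 1.79 (1.77 without GADD45G library 3). Rarres2, the retinoid-responsive gene of the chemoattractant chemerin, had 34.9, 39.6 and 38.6 CPM in GADD45G libraries, against 5.12, 5.31 and 5.62 CPM in GFP libraries (2.82, SE 0.09, adjusted p = 4.9e-10). Cyp26b1, which degrades retinoic acid, had 8.38, 6.81 and 10.5 CPM against 1.43, 1.82 and 1.56 CPM (2.41, SE 0.21). Aldh1a1, which makes it, had 68.5, 66 and 107 CPM against 24.1, 22.6 and 23.2 CPM (1.79, SE 0.16). The retinaldehyde reductase gene Dhrs3 (1.87) and the retinol dehydrogenase gene Rdh5 (1.96) also rose, whereas Rdh10, the main retinol dehydrogenase of development, fell by 1.37 (SE 0.06) with 110, 104 and 94 CPM against 265, 263 and 268 CPM. Rara, the retinoic acid receptor alpha, rose by 0.82 (SE 0.09). Cyp26b1 had a mean of 1.97 CPM in shLuc libraries, near the GFP level, while Dhrs3 (116 CPM) and Rdh5 (15.6 CPM) were near the GADD45G level.

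Prostaglandin genes changed in opposite directions along one pathway. Pla2g4a, the phospholipase that frees arachidonic acid, rose by 1.5 (SE 0.14), and Ptgs2, the inducible cyclooxygenase, had 5.53, 3.7 and 5.88 CPM in GADD45G libraries, against 0.665, 1.29 and 0.586 CPM in GFP libraries (2.56, SE 0.33). Ptges, the microsomal prostaglandin E synthase (chromosome 2, 30889471 to 30929863, minus strand, mm10), had 6.93, 7.35 and 10.6 CPM in GADD45G libraries, against 261, 255 and 260 CPM in GFP libraries. Its log2 fold change was -4.96 (SE 0.11, adjusted p = 4.5e-11), and its mean was 9.65 CPM in shLuc libraries and 6.94 CPM in shGADD45G libraries, so the GFP libraries were the ones apart. Of the 11 tested eicosanoid genes 7 were higher (6 called) and 1 was lower. Slco2a1, the prostaglandin transporter, had the highest fold change of the metabolic genes, 7.47 (SE 1.73), or 4.0 without GADD45G library 3, with 0.782, 0.98 and 27.8 CPM in GADD45G libraries, against 0.0512, 0.0956 and 0 CPM in GFP libraries. In polyamine metabolism, Sms, the spermine synthase, fell by 1.37 (SE 0.05), and Odc1, the ornithine decarboxylase, rose by 0.47 (SE 0.05). In tryptophan metabolism, Tdo2, the tryptophan dioxygenase, had 1.73, 0.926 and 4.32 CPM against 16.4, 15.3 and 15.4 CPM (-2.75, or -3.56 without GADD45G library 3). Nampt, which starts NAD salvage, rose by 0.66 (SE 0.05).

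Adhesion and guidance genes changed strongly in both directions. Of 184 tested members in 10 lists, 62 were higher and 77 lower, and 43.5% were called with at least a 2-fold change (35 higher and 45 lower), beside 18.2% of all genes. Cadherins and immunoglobulin-type molecules were mostly lower. Cdh13, the GPI-anchored T-cadherin (chromosome 8, 118283733 to 119324921, plus strand, mm10), had 1.23, 1.2 and 2.61 CPM in GADD45G libraries, against 86.6, 93.5 and 90.6 CPM in GFP libraries (log2 fold change -5.75, SE 0.15, adjusted p = 1.0e-10). Cdh11, a mesenchymal cadherin, had 59.4, 63 and 61.3 CPM against 187, 183 and 185 CPM (-1.59, SE 0.05). Cdh2, N-cadherin, the main cadherin of astrocyte contacts, fell by only 0.23 (SE 0.05). Cdh19, a cadherin of glial and neural crest cells, rose by 1.79 (SE 0.09) with 21, 22.7 and 20.7 CPM against 6.04, 6.31 and 6.25 CPM. Of 12 cadherins tested 7 were lower and 2 higher, the second being Cdh4 (0.14, not passing with DESeq2, upper quartile factors, no filter or the replicate block). In shLuc libraries Cdh13 had a mean of 11.5 CPM and Cdh11 of 108 CPM, both between the 2 groups.

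Of 34 immunoglobulin-type adhesion molecules 19 were lower and 8 higher, with 15 lower and 5 higher by at least 2-fold and a median of -0.74. The contactins, GPI-anchored partners of neuronal receptors, fell together. Cntn1 had 2.57, 2.99 and 1.77 CPM in GADD45G libraries, against 28.4, 28.8 and 28.7 CPM in GFP libraries (-3.54, SE 0.14), and Cntn3 had 1.29, 0.98 and 2.44 CPM against 26.5, 24.6 and 23.4 CPM (-3.98, SE 0.22). Ncam1 (-1.52), Nrcam (-1.34), Chl1 (-1.22) and Lsamp (-3.45), adhesion molecules of neurites, were lower too. The pan-neuronal markers fell with them, 8 of 9 tested lower and none higher, and Snap25 had 1 count in the GADD45G libraries against 152 in the GFP libraries. Their part in the result was not tested. Rises included those of Vcam1 (1.98) and Icam1 (1.91), both also inflammation genes, of Opcml (1.65) and of Cadm4, a synaptic cell adhesion molecule, which had 575, 599 and 550 CPM in GADD45G libraries, against 189, 188 and 188 CPM in GFP libraries (1.61, SE 0.05). Of 29 synaptic adhesion molecules 11 were lower and 5 higher, together 55.2%, below the share of all genes. Tenm3, a teneurin that matches partner neurons, had 28.3, 33 and 24.5 CPM against 269, 233 and 247 CPM (-3.12, SE 0.10), and its relative Tenm4 rose by 1.85 (SE 0.10).

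Integrins are heterodimers that bind matrix proteins, and 8 of 20 were higher and 5 lower (65%). All 6 called 2-fold changes were rises, with Itga7 (2.75), Itga1 (2.38), Itga2b (1.68) and Itga3 (1.45) among them. The rises of Itgb3 (2.64, or 1.56 without GADD45G library 3) and Itga8 (1.37, or 0.81 without it) did not pass without 2 and 3 of the 6 libraries in turn. Itga1, a collagen-binding alpha chain, had 211, 213 and 190 CPM in GADD45G libraries, against 38.6, 40.5 and 38.7 CPM in GFP libraries (SE 0.06, adjusted p = 8.6e-11), and a shLuc mean of 161 CPM. Itga7, a laminin-binding alpha chain, had 55.3, 55.2 and 50.1 CPM against 7.67, 7.6 and 8.6 CPM (SE 0.08). The shared partner Itgb1 fell by 0.73 (SE 0.04), with 605, 632 and 638 CPM against 1036, 1056 and 1027 CPM, and Itgb8, the astrocyte integrin that activates TGF-beta, fell by 0.78 (SE 0.05). Gja1, the connexin-43 of astrocyte gap junctions, had 556, 582 and 523 CPM against 245, 252 and 236 CPM (1.18, SE 0.05).

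Guidance systems changed at nearly every member. Of 30 semaphorins and plexins 27 passed, of 18 ephrins and Eph receptors 17, and of 16 slits, robos and netrins 15, beside 60.3% of all genes. Sema3f, a secreted repellent, had 157, 148 and 146 CPM in GADD45G libraries, against 26.7, 24.6 and 25 CPM in GFP libraries (2.56, SE 0.06, adjusted p = 3.3e-11), and Sema3b rose by 1.68 (SE 0.05). The plexin Plxnc1 fell by 2.14 (SE 0.11), and Plxnb1 rose by 1.00 (SE 0.05). Among Eph genes, the ligand Efna1 (2.47, SE 0.23) and the receptor Epha2 (1.89, SE 0.12) rose, as did Ephb2 (1.02, SE 0.05), and the ligand Efnb2 fell by 1.05 (SE 0.06). The Slit ligands and a receptor fell. Slit3 had 10.7, 12.1 and 17.7 CPM in GADD45G libraries, against 83.8, 75.5 and 82 CPM in GFP libraries (-2.57, SE 0.13), and the receptor Robo2 had 46.2, 49.6 and 46.7 CPM against 233, 222 and 227 CPM (-2.26, SE 0.05). The netrin receptors Unc5b (1.28) and Unc5c (1.10) rose.

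Of 186 tested transcription factors in 8 lists, 75 were higher and 67 lower (76.3% beside 60.3% of all genes). Over all 979 tested genes that the table itself assigns to a transcription factor family, 333 (34%) were called lower and 249 (25.4%) higher, beside 28.7% and 29.7% of all genes. Factors of neural progenitors and of the ventral forebrain were among the deepest falls. Dlx1 and Dlx2, homeobox factors of GABAergic progenitors, fell on the log2 scale by 3.22 (SE 0.11) and 2.18 (SE 0.10), and Gsx2 by 4.10 (SE 0.28). Dlx5 had 1 count in GADD45G libraries against 141 in GFP libraries, and the ratio of GFP to GADD45G was 126 (22.2 to 4999). Foxo6, a forkhead factor of the forebrain, had 3.3, 1.47 and 2.33 CPM in GADD45G libraries, against 48.7, 50.2 and 50.4 CPM in GFP libraries (-4.40, SE 0.17). The shLuc means were 2.45 CPM for Dlx1 and 0.756 CPM for Foxo6, so these factors were high in the GFP libraries alone. The cortical factors Lhx2 (-0.35), Emx2 (-0.40) and Pax6 (-0.40) fell slightly. GABAergic markers moved with this group, 6 of 7 tested lower, with Gad2 at 1 count in GADD45G libraries against 181 and Slc32a1 at 0 against 55. Their part in the result was not tested. Npy was the exception among them, higher by 2.48 (SE 0.15).

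SOX factors changed at 12 of 13 tested members, in both directions. Sox2, a factor of neural stem cells, had 464, 477 and 429 CPM in GADD45G libraries, against 157, 157 and 152 CPM in GFP libraries (1.56, SE 0.05, adjusted p = 5.8e-10). Sox9, which specifies glia, had 541, 527 and 457 CPM against 193, 196 and 202 CPM (1.37, SE 0.06). Sox3, another progenitor factor, had 0.0559, 0.599 and 0.277 CPM against 6.5, 7.6 and 6.94 CPM (-4.46, SE 0.42, and -5.31 to -4.01 with each library left out in turn). Sox5 fell by 2.55 (SE 0.18), and Sox11, a factor of immature neurons, by 2.31 (SE 0.12), with 10.3, 12.6 and 8.37 CPM against 50.6, 48.8 and 56 CPM. Of 13 SOX genes 5 were higher and 7 lower. MYC genes, picked after their values were seen, moved in opposite directions. Myc had 17.5, 16.8 and 19 CPM in GADD45G libraries, against 3.38, 3.2 and 2.64 CPM in GFP libraries (2.53, SE 0.13). Mycn had 0.0559, 0.436 and 0.222 CPM against 21.1, 21.7 and 22 CPM (-6.46, SE 0.27, and -7.19 to -6.03 with each library left out in turn), and Mycl fell by 4.27 (SE 0.15). The shLuc means were 5.13 CPM for Myc, 0.392 CPM for Mycn and 3.19 CPM for Mycl. Other factors picked in the same way were Pax2, a patterning factor, at 14.6, 15.8 and 13.7 CPM against 0.512, 0.765 and 0.537 CPM (4.58, SE 0.19), Osr1, higher by 3.24 (SE 0.12), and the neurogenic zinc finger factor Insm1, lower by 5.87 (SE 0.22).

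The bZIP factors were mostly higher, with 26 of 42 rising, 8 falling and a median of 0.40, beside 30.6% and 29.7% of all genes. Atf5, a stress factor also known to hold neural progenitors back from differentiation, had 527, 514 and 486 CPM in GADD45G libraries, against 100, 96.3 and 98.8 CPM in GFP libraries (2.37, SE 0.05, adjusted p = 2.3e-11). Junb, an AP-1 subunit, rose by 2.33 (SE 0.09), Nfil3 by 2.32 (SE 0.09), Cebpb by 2.19 (SE 0.08) and Ddit3, the stress factor CHOP, by 1.83 (SE 0.06). Hlf fell by 2.49, or by 3.26 without GADD45G library 3, and its circadian relatives Tef (-0.79) and Dbp (-0.51) were lower. Among nuclear receptors, 10 of 33 were higher and 14 lower. Pparg, a lipid-sensing receptor, had 4.36, 3.7 and 4.99 CPM in GADD45G libraries, against 0.358, 0.622 and 0.977 CPM in GFP libraries (2.72, SE 0.34), and a mean of 1.04 CPM in shLuc libraries. Nr4a2 fell by 1.33 (SE 0.15).

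The largest family in the table's own annotation, the C2H2 zinc finger genes, fell more often than it rose. Of 459 tested, 174 (37.9%) were called lower and 56 (12.2%) higher, beside 28.7% and 29.7% of all genes. By at least 2-fold 66 (14.4%) were lower and 5 (1.09%) higher, beside 9.53% and 8.68% of all genes, and the median was -0.15. On chromosome 17, 15 of 50 tested zinc finger genes were lower by at least 2-fold (30%), and on chromosome 4, 11 of 30 (36.7%). On chromosome 7 the count was 12 of 101 (11.9%), below the share of the whole family. Zfp820 (chromosome 17, 21816885 to 21845772, minus strand, mm10) had 1.96, 2.78 and 4.1 CPM in GADD45G libraries, against 283, 264 and 261 CPM in GFP libraries (-6.51, SE 0.14, adjusted p = 2.6e-11). Near it, Zfp947 (22144359 to 22166190) had 0.726, 0.762 and 0.943 CPM against 45.1, 49.1 and 42.5 CPM, and Zfp944 (22337989 to 22361400) had 16.8, 18.5 and 14.6 CPM against 175, 174 and 168 CPM. On chromosome 4, Zfp979 (147611937 to 147642513) had 0.726, 0.327 and 0.665 CPM against 46.4, 42.5 and 45.2 CPM. These genes were named after their values were seen. Their shLuc means were 2.12 CPM for Zfp820, 1.11 CPM for Zfp947, 17.5 CPM for Zfp944 and 0.466 CPM for Zfp979, so the GFP libraries were apart from the other groups at each of them. Clustered zinc finger genes are near copies of one another, so reads may have been split between neighbours and single values are uncertain.

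**Figure D4:**
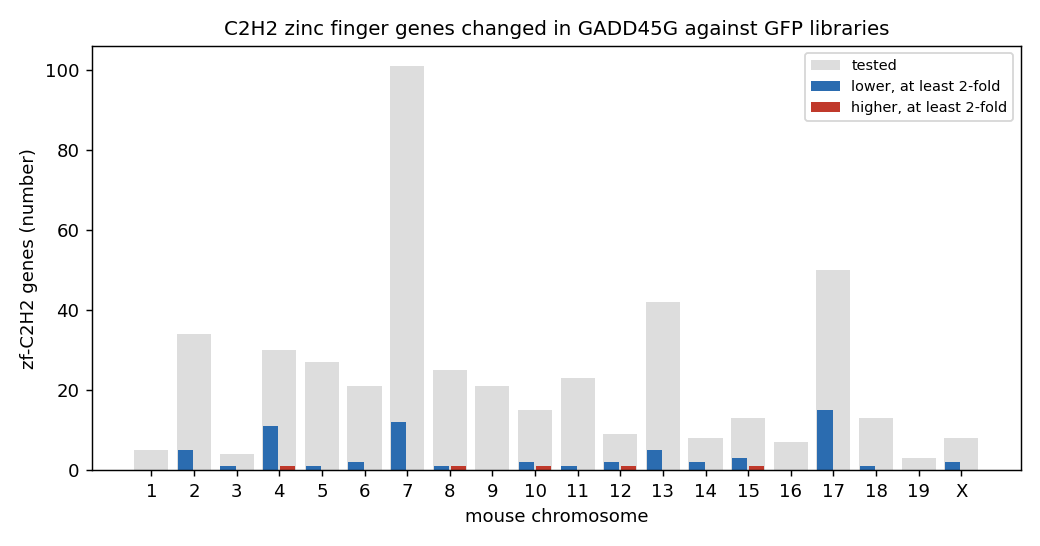
Number of C2H2 zinc finger genes tested on each mouse chromosome (grey bars), and of these the numbers called lower (blue) and higher (red) by at least 2-fold in GADD45G against GFP libraries. Chromosomes 17, 7 and 4 hold 15, 12 and 11 of the lower genes.

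Among these areas, receptors and channels held the highest share of called changes of at least 2-fold. Of 228 tested members in 12 lists, 77 were higher and 103 lower. At least a 2-fold change was called for 45.6% (39 higher and 65 lower), beside 18.2% of all genes. Some lower members, such as Htr5a (0 counts in GADD45G libraries against 391), passed the low-count filter through the GFP libraries alone. Such members could only be called lower, which adds to these shares. All 4 AMPA-type glutamate receptor subunits were lower, a pair of them sharply. Gria1 (chromosome 11, 57011387 to 57330244, plus strand, mm10) had 34.9, 44.3 and 36.2 CPM in GADD45G libraries, against 395, 383 and 376 CPM in GFP libraries (-3.32, SE 0.08, adjusted p = 7.3e-11). Gria2, the subunit that limits calcium entry, had 16.8, 17.4 and 15.5 CPM against 151, 146 and 147 CPM (-3.16, SE 0.06). The shLuc means were 38.1 CPM for Gria1 and 44.8 CPM for Gria2, well below the GFP libraries. Gria3 fell by 0.48 (SE 0.05), with 174, 175 and 159 CPM against 240, 235 and 232 CPM, and Gria4 by 0.43 (SE 0.09). Of 15 ionotropic glutamate receptor genes 10 were lower, and Grik4, a kainate receptor subunit, was the 1 higher (1.01, SE 0.35), not passing with DESeq2, with no filter or without 3 of the libraries in turn. Of 12 GABA and glycine receptor genes 8 were lower and 3 higher (6 and 2 called), with Gabra2 (-3.67, SE 0.24) and Gabrg1 (-4.22, SE 0.26) among the falls. Of 30 potassium channels 15 were lower and 10 higher, with 12 lower and 2 higher by at least 2-fold. Kcna4, a voltage-gated channel, had 0.838, 1.2 and 1.22 CPM against 8.24, 9.99 and 8.99 CPM (-3.06, SE 0.20), whereas Kcnj10, the Kir4.1 channel with which astrocytes buffer potassium, rose by 0.53 (SE 0.05). The fall of the pan-neuronal markers given above moves with these lists as well.

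Among receptors for transmitters and peptides, single genes went far in either direction. Prokr2, a prokineticin receptor, had 0.112, 0.109 and 0.166 CPM in GADD45G libraries, against 16.9, 15.5 and 15.6 CPM in GFP libraries (-6.89, SE 0.21). Tacr1, the substance P receptor, had 2.68, 1.96 and 2.72 CPM against 38.3, 34.5 and 36.9 CPM (-3.90, SE 0.12), and Htr7, a serotonin receptor, fell by 4.91 (SE 0.19). Rises included those of Adora1, the inhibitory adenosine A1 receptor, with 143, 152 and 127 CPM against 60, 56.1 and 54.6 CPM (1.31, SE 0.07), the bradykinin receptor Bdkrb2 (3.18, SE 0.23) and the adrenergic receptors Adra2a (2.29, SE 0.17) and Adra1b (3.16, SE 0.44). Ednrb, the endothelin B receptor of astrocytes, rose by 0.57 (SE 0.05). Receptors for lipid mediators were also split. Lpar4, a lysophosphatidic acid receptor, had 17.1, 18.4 and 17 CPM against 104, 117 and 108 CPM (-2.65, SE 0.06), and Lpar6 fell by 2.36 (SE 0.11). S1pr3, a sphingosine phosphate receptor, had 476, 476 and 422 CPM against 183, 189 and 184 CPM (1.31, SE 0.05), and S1pr1 fell by 0.64 (SE 0.05). Ptgfr, the prostaglandin F receptor, had 24.5, 25.5 and 24.9 CPM in GADD45G libraries, against 2.71, 4.3 and 4.64 CPM in GFP libraries (2.68, SE 0.16) and a mean of 5.30 CPM in shLuc libraries.

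Growth factor receptors changed without a common direction, with 15 of 32 receptor tyrosine kinases higher and 10 lower (13 and 9 called). Kdr, the VEGF receptor 2, had 11.1, 11.3 and 16.7 CPM in GADD45G libraries, against 142, 138 and 134 CPM in GFP libraries and a mean of 15.7 CPM in shLuc libraries (-3.40, SE 0.11). The endothelial marker sum, of which Kdr is a part, was 14.8 to 15.3 CPM in GADD45G libraries 1 and 2, 101 CPM in library 3 and 137 to 145 CPM in the GFP libraries. Vwf had 1.9, 1.69 and 21.1 CPM in GADD45G libraries, against 0.335 to 0.87 CPM in GFP libraries, so that Kdr made up most of the sum in all of these libraries but GADD45G library 3. Met, the hepatocyte growth factor receptor, had 50.9, 47.4 and 47.7 CPM against 12.1, 13.5 and 14.2 CPM (1.87, SE 0.08), and Ddr1, a collagen receptor kinase, rose by 1.04 (SE 0.05). Fgfr3 rose by 1.39 (SE 0.05). In the Wnt list 13 of 29 were lower and 8 higher. The secreted modulators Dkk2 (3.35, 3.43 and 1.44 CPM against 32.5, 32.2 and 31.2 CPM, -3.54, SE 0.20), Dkk3 (-2.73, SE 0.08) and Sfrp1 (-1.25, SE 0.05) fell. The receptor gene Lgr6 rose by 4.53 (SE 0.37), with 5.08, 3.1 and 3.6 CPM against 0.102, 0.191 and 0.195 CPM. In the BMP and activin list 12 of 25 were higher and 8 lower. The ligand Bmp4 had 5.7, 5.44 and 6.54 CPM in GADD45G libraries, against 0.716, 0.669 and 0.684 CPM in GFP libraries (3.08, SE 0.22), the antagonist Fst rose by 2.95 (SE 0.23), and Fstl1 fell by 1.13 (SE 0.04). Of the adhesion GPCRs 18 of 19 passed, with Adgrg1 higher (2.12, SE 0.06) and Adgrv1 lower (-2.29, SE 0.09).

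Cilia genes were the one area with a common direction. Of 202 tested members in 7 lists, 134 were higher and 24 lower, beside 30.6% and 29.7% of all genes, and the median log2 fold change was 0.53 (0.57 without GADD45G library 3). The rise was concentrated in the parts of motile cilia. A motile cilium is driven by dynein arms set on paired microtubules, and radial spokes and a central pair govern the beat. Primary cilia lack these and serve as antennae, for instance for Hedgehog signals, while intraflagellar transport builds both kinds. The plot of ciliary lists sets the shares side by side.

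**Figure D5:**
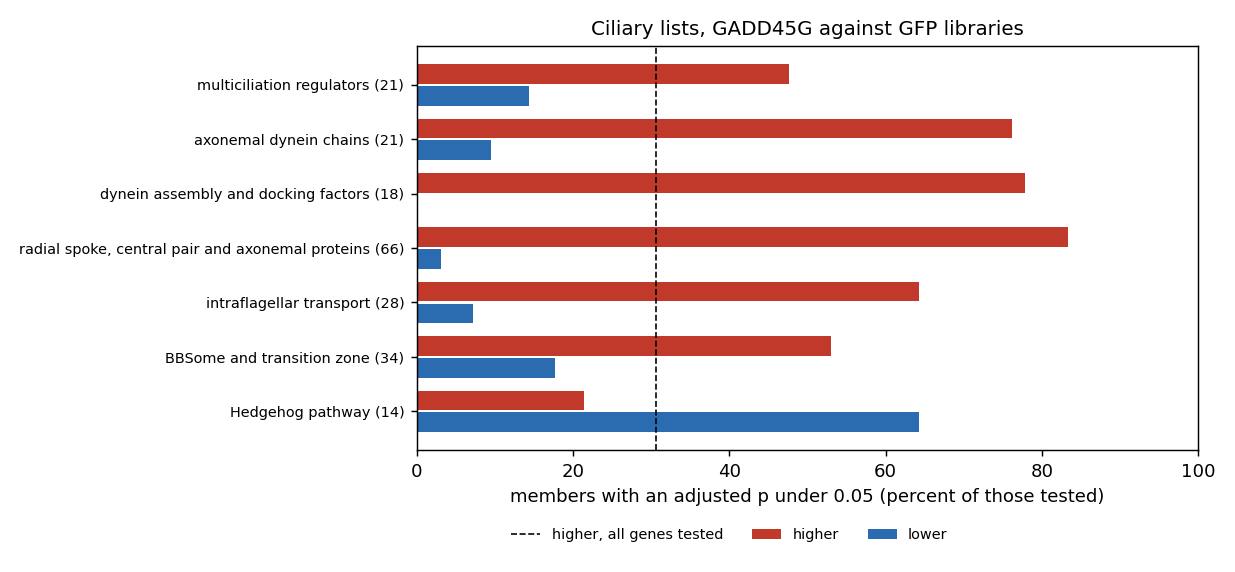
Share of tested members (number in brackets) of each ciliary list with an adjusted p under 0.05, higher (red) and lower (blue) in GADD45G against GFP libraries, with the share of higher genes among all genes tested (30.6%) as a dashed line. The 3 motile axoneme lists lie far right of the line in red, and the Hedgehog list is the only one with more lower than higher genes.

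Of the regulators, Foxj1, the main transcription factor of motile cilia (chromosome 11, 116330704 to 116335399, minus strand, mm10), had 840, 842 and 767 CPM in GADD45G libraries, against 258, 264 and 262 CPM in GFP libraries. Its log2 fold change was 1.64 (SE 0.05, adjusted p = 2.5e-10), and its mean was 685 CPM in shLuc libraries. Mcidas, which commits cells to many cilia, had 2.12, 2.89 and 2.55 CPM against 1.02, 0.526 and 0.684 CPM (1.76, SE 0.32). Ccdc78, a gene of centriole amplification, rose by 2.59 (SE 0.21). Gmnc, which acts upstream of Mcidas, fell by 0.40 (SE 0.06), and the RFX family was split, with Rfx2 higher by 1.05, Rfx4 lower by 0.63 (SE 0.05) and Rfx3 not passing (0.07). Of 21 multiciliation regulators 10 were higher (9 called) and 3 lower, together 61.9% beside 60.3% of all genes. In shLuc libraries Mcidas averaged 0.733 CPM and Ccdc78 3.82 CPM, and for 3 of the 7 called 2-fold changes of the list the shLuc mean lay nearer the GADD45G libraries.

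Of the 3 motile axoneme lists, 16 of 21 dynein chains, 14 of 18 assembly and docking factors and 55 of 66 radial spoke, central pair and other axonemal genes were higher, against 2, 0 and 2 lower. Their medians were 0.98, 0.77 and 0.94. Dnajb13, a radial spoke protein, had 59, 63.9 and 58.7 CPM in GADD45G libraries, against 13.8, 11 and 13 CPM in GFP libraries (2.26, SE 0.08, adjusted p = 1.2e-09). Cfap126, which positions basal bodies, had 80.9, 77 and 69 CPM against 19.1, 17.2 and 16.6 CPM (2.10, SE 0.07), and Dnah12, an inner-arm dynein heavy chain, had 13.3, 10.3 and 10.5 CPM against 2.87, 1.63 and 1.76 CPM (2.45, SE 0.22). Lrrc6, a dynein assembly factor, rose by 2.06 (SE 0.21). Exceptions were Dnah9, an outer-arm heavy chain, with 79.2, 78.1 and 70.1 CPM in GADD45G libraries, against 192, 168 and 176 CPM in GFP libraries (-1.24, SE 0.07), and Cfap100 (-1.10, SE 0.05). The dynein heavy chain gene Dnah2 (-0.30, SE 0.08) and Efhc2 (-0.63) were the other lower genes, and Efhc2 did not pass with DESeq2, no filter or the replicate block. Dnah7a, Dnah7b and Dnah7c rose by 1.19 to 1.32 and are near copies, so reads may have been split between them. The shLuc means were 52.9 CPM for Dnajb13, 58.9 CPM for Cfap126, 76.4 CPM for Dnah9 and 59.6 CPM for Cfap100. Of 30 called 2-fold changes in the radial spoke and axonemal list, the shLuc mean lay nearer the GADD45G libraries for 27.

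The parts shared with primary cilia changed less. Of 28 intraflagellar transport genes 18 rose and 2 fell, the median was 0.28, and no called change reached 2-fold. Ift81, which binds tubulin cargo, had 80.6, 89.6 and 75.1 CPM in GADD45G libraries, against 46.9, 49.2 and 43.2 CPM in GFP libraries (0.82, SE 0.07), and Ift57 fell by 0.55 (SE 0.05). Of 34 BBSome and transition zone genes 18 were higher and 6 lower, and Ttc8, a BBSome subunit also known as BBS8, had 40.6, 45 and 38.6 CPM against 93, 87.8 and 87.9 CPM (-1.11, SE 0.06). Hedgehog genes leaned down, with 9 of 14 lower and 3 higher. The receptor and target gene Ptch1 had 138, 127 and 116 CPM in GADD45G libraries, against 333, 315 and 329 CPM in GFP libraries (-1.36, SE 0.06), and the target gene and effector Gli1 had 3.86, 2.5 and 3.99 CPM against 7.32, 9.23 and 9.67 CPM (-1.34, SE 0.20). The co-receptor Gas1 had 198, 184 and 177 CPM against 42.3, 41.9 and 48.1 CPM (2.08, SE 0.07). The shLuc means were 136 CPM for Ptch1, 1.36 CPM for Gli1 and 279 CPM for Gas1, on the GADD45G side of the GFP libraries in each case.

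RFX factors are known to bind the X-box, a near-palindrome in promoters of ciliary genes. The 300-base promoter windows were searched for the half-sites GTNNCC and GNAAC, set 3 bases apart, on both strands. It was found in 20 of 86 motile axoneme genes with a window (23.3%), in 14 of 54 intraflagellar transport, BBSome and transition zone genes (25.9%), in 385 of 11281 tested genes (3.41%) and in 673 of 27025 genes in all (2.49%). Among motile axoneme genes it was in 17 of 68 called higher (25%) and in 3 of the 18 others (16.7%). Among genes shared with primary cilia it was in 5 of 29 called higher (17.2%) and in 9 of the 25 others (36%). Matches are lined up below for 4 motile axoneme genes that rose and for 2 genes of the second set that fell, each in capitals and written in the direction in which the motif is spelled.
Iqca, chr1:90153523-90153536, minus strand: GTTGCCACGGAAAC
Cfap45, chr1:172521111-172521124, minus strand: GTTACCATAGCAAC
Cfap206, chr4:34730216-34730229, plus strand: GTAACCGTGGAAAC
Hydin, chr8:110266956-110266969, minus strand: GTTGCCACAGCAAC
Ift57, chr16:49699207-49699220, minus strand: GTCACCACGGCAAC
Tctn2, chr5:124598687-124598700, minus strand: GTAGCCATGGTAAC
The log2 fold changes of these genes were 1.85, 1.63, 1.5 and 1.47 for Iqca, Cfap45, Cfap206 and Hydin, and -0.55 and -0.58 for Ift57 and Tctn2. The whole windows of Cfap45, a protein inside ciliary microtubules, and Tctn2, a transition zone protein, show the match in its surroundings on the gene's own strand, with the matching bases in capitals, which read there as the reverse complement.
Cfap45, chr1:172520880-172521179, plus strand: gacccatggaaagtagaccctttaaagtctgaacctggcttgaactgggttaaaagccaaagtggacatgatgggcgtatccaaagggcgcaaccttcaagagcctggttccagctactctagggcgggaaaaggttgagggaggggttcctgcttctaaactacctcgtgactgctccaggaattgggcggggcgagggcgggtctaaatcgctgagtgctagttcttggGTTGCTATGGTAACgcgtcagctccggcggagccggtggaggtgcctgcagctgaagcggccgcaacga
Tctn2, chr5:124598499-124598798, plus strand: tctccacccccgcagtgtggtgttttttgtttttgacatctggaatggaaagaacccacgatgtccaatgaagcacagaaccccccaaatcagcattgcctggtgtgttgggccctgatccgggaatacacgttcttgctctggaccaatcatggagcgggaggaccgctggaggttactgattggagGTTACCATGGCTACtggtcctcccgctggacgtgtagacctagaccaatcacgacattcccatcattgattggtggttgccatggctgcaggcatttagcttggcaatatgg
The match starts 19 bases before the annotated start in Cfap45 and 62 bases before it in Tctn2. Cfap45 had 39.5, 48.5 and 46.6 CPM in GADD45G libraries, against 14.8, 14.7 and 13.8 CPM in GFP libraries, and Tctn2 had 71.4, 68.3 and 65.9 CPM against 95.8, 105 and 106 CPM. Genes with and without the motif thus occur on both sides, and the letters alone describe the windows and not binding.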

How the data were processed

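Per the file headers, the authors deposited read counts per gene for each library, together with their own normalised and FPKM values. Those 24 per-sample columns and their fold changes were not used. Per the submitters' processing notes, reads were aligned with STAR 2.5 to mm10 and counted with HTSeq 0.6.1, and no source used here states a strand setting. Counts were fitted anew with edgeR 4.0.16 (R 4.3.3) with TMM factors, filterByExpr, the quasi-likelihood F test and Benjamini-Hochberg adjustment over all 15418 genes tested, with 3 libraries per group. That filter keeps a gene expressed in either group alone. A gene near 0 in the other group could then be called in a single direction only. This bears on the shares given for every list and area, and for all genes tested. The fit was tested on simulated counts in which 200 of 15418 genes were changed, far fewer than passed here. It recovered 64.2% of 1.5-fold, 73.1% of 2-fold and 90.9% of 4-fold changes, and 8 unchanged genes passed. Scaling under changes as broad as those of these libraries was not tested. A change counts as called at an adjusted p under 0.05 in the same direction with and without GADD45G library 3. Counts of higher and lower list members, where not said to be called, use the fit of all 6 libraries. Levels in shLuc and shGADD45G libraries come from a separate table, after TMM scaling of all 12 libraries on 15900 genes, and carry no test. CPM is not per length, so levels were not compared between genes. Total counts of 17810863 to 20756461 per library limit precision mainly for genes under 1 CPM.

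The comparison, the gene lists and their members were chosen with earlier results of these data known. Named genes are Gadd45g, the 12 largest called changes per direction outside interferon and reactive genes, and up to 3 members per direction and 2 of the highest members of each list, with some left out for length. Genes beyond that rule were named after their values were seen. Alternatives were RLE and upper quartile factors, DESeq2 1.42.0, other filters on low counts, the replicate number as a block and leaving out each library.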

Additional observations from a re-analysis of the deposited data

How the results depend on the processing

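The numbers of genes changed stayed within 1.5 times under every alternative run. Higher and lower genes numbered 4660 and 4644 with RLE factors, 4518 and 4873 with upper quartile factors, 4317 and 4368 with DESeq2, 4573 and 4340 with no filter on low counts, and 4628 and 4451 with at least 1 CPM in 3 libraries. With each library left out in turn they ranged over 3907 to 5098 and 4072 to 5045. Replicate numbers did not pair the libraries (correlations of deviations for equal numbers were -0.005, -0.009 and 0.012), and the fit with the replicate number as a block gave 4511 higher and 4437 lower genes. Gadd45g no longer passed with no filter (0.15, adjusted p = 0.0877) or with the replicate block (0.16, adjusted p = 0.0532), and its log2 fold change ranged over 0.10 to 0.18 with each library left out. Without GADD45G library 3, Tmem119 (-1.36), C1qb (-1.34), C1qc (-1.54), Tyrobp (-1.47), Cd68 (-0.54), Col3a1 (-0.51) and Ager (-1.73) turned negative, against at most 0.79, 0.63, 0.59, 1.51, 0.56, 6.55 and 2.11 with another library left out, and the cause was not tested. Of the values of named genes under an alternative, 5630 kept direction and side of the threshold, 117 lost and 24 gained the call, and 7 turned. Of the counts per list, 54 moved by over 1.5 times and 1386 did not.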
